A study of Danio rerio with 8 samples.

Results

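Annexins were examined in adult zebrafish heart ventricles through 10 genes of the family, anxa1a, anxa2a, anxa2b, anxa3b, anxa4, anxa5b, anxa6, anxa11a, anxa11b and anxa13. The members were found by gene symbol or synonym, and 10 of the 31388 gene identifiers in the table matched. The table of gene names lists anxa1a as ANXA1 (ENSDARG00000026726), anxa2a as ANXA2 (ENSDARG00000003216), anxa4 as ANXA4 (ENSDARG00000036456) and anxa6 as ANXA6 (ENSDARG00000013335). anxa2b (ENSDARG00000053625), anxa3b (ENSDARG00000044254), anxa5b (ENSDARG00000016470) and anxa13 (ENSDARG00000013976) are listed under their own names. anxa11a and anxa11b both matched the symbol ANXA11, which stands beside ENSDARG00000002632 and ENSDARG00000077383, and the names do not tell which identifier is which paralog. Both are given below by identifier. Reads from closely related paralogs can be divided among copies, so the levels within the anxa11 and anxa2 pairs are uncertain.

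Annexins bind negatively charged phospholipids in the presence of calcium through a conserved core of repeats, and differ mainly in their N-terminal tails. They take part in membrane repair, vesicle traffic and, in mammals, in the control of inflammation and of plasmin formation at the cell surface. Some are abundant in connective tissue, endothelial and epithelial cells, and annexin A5 and annexin A6 are known from mammalian hearts.

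The libraries came from adult Tg(-6.8wt1a:EGFP) fish of 3 to 9 months. Sequence upstream of wt1a, a gene for an epicardial transcription factor, drives green fluorescent protein (GFP) in them. All 8 libraries share this transgene, and no fish was treated. Ventricles of 3 to 5 hearts were pooled, and each of 4 pools gave a library from cells labelled GFP-positive (wt1a+) and a library from cells labelled GFP-negative (wt1a-), so that n = 4 per labelled sort. The protocol text also speaks of mCherry-positive cells and the ventricular apex, whereas the titles speak of GFP, and the titles were used here.

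Values are TPM, a measure of transcript abundance that allows for transcript length and has the same total in every library, so that levels can be compared between genes but the sequencing depth is unknown. Between 12332 and 14783 genes reached 1 TPM per library. The gene of the reporter did not follow the label. WT1 (wt1a, ENSDARG00000031420) ranged from 1.15 to 2.59 TPM across pools 1 and 2 and from 39.5 to 107 across pools 3 and 4, with the higher value under the GFP-positive label in pool 2 alone. Every direction given for a sort below is therefore that of the label. A mix-up of labels was not tested. Nothing in the labels separates the pools beyond their number. The arrangement of pools 1 and 2 against 3 and 4 was seen in the data, and the combined split is described by ranges, with no test of its own. The contrasts between single pools given further on were read with this arrangement known, and they are no independent support for it.

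anxa1a was the most abundant annexin in all 8 libraries. The protein, annexin A1, is known in mammals as a glucocorticoid-induced inhibitor of inflammation. Under the GFP-negative label anxa1a had 185, 210, 2985 and 1929 TPM in pools 1 to 4, and under the GFP-positive label it had 195, 171, 1208 and 1049 TPM. Pools 3 and 4 thus stood apart from pools 1 and 2, with the lowest library of the former 4.99 times the highest of the latter as deposited and 2.31 times after scaling between libraries. By abundance within its library, a measure that no scaling can alter, anxa1a ranked 228 to 273 across pools 1 and 2 against 48 to 87 across pools 3 and 4.

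anxa5b showed the widest separation between these pools. Annexin A5 is the phosphatidylserine-binding protein used as a stain for dying cells. In the libraries labelled GFP-negative anxa5b had 14.2, 19.96, 334 and 140 TPM in pools 1 to 4, and under the GFP-positive label it had 17.0, 12.8, 283 and 200. The lowest library of pools 3 and 4 had 7.03 times the TPM of the highest library of pools 1 and 2 as deposited, and 4.12 times after scaling. Its rank within the library was 1671 to 2636 across pools 1 and 2 against 292 to 434 across pools 3 and 4.

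anxa4 and anxa2a had the same order of pools at a smaller distance. Annexin A4 lies on membranes of secretory epithelia in mammals, and annexin A2 forms a complex with the small calcium-binding protein S100A10. anxa4 had 51.2, 50.4, 342 and 193 TPM under the GFP-negative label and 52.5, 39.0, 243 and 211 under the GFP-positive label. anxa2a had 109, 150, 704 and 330 TPM under the GFP-negative label, and 93.0, 117, 429 and 341 under the GFP-positive label. In both genes every library of pools 3 and 4 lay above every library of pools 1 and 2. The same held for 33.4% of all genes tested, with the TPM as deposited.

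**Figure D1:**
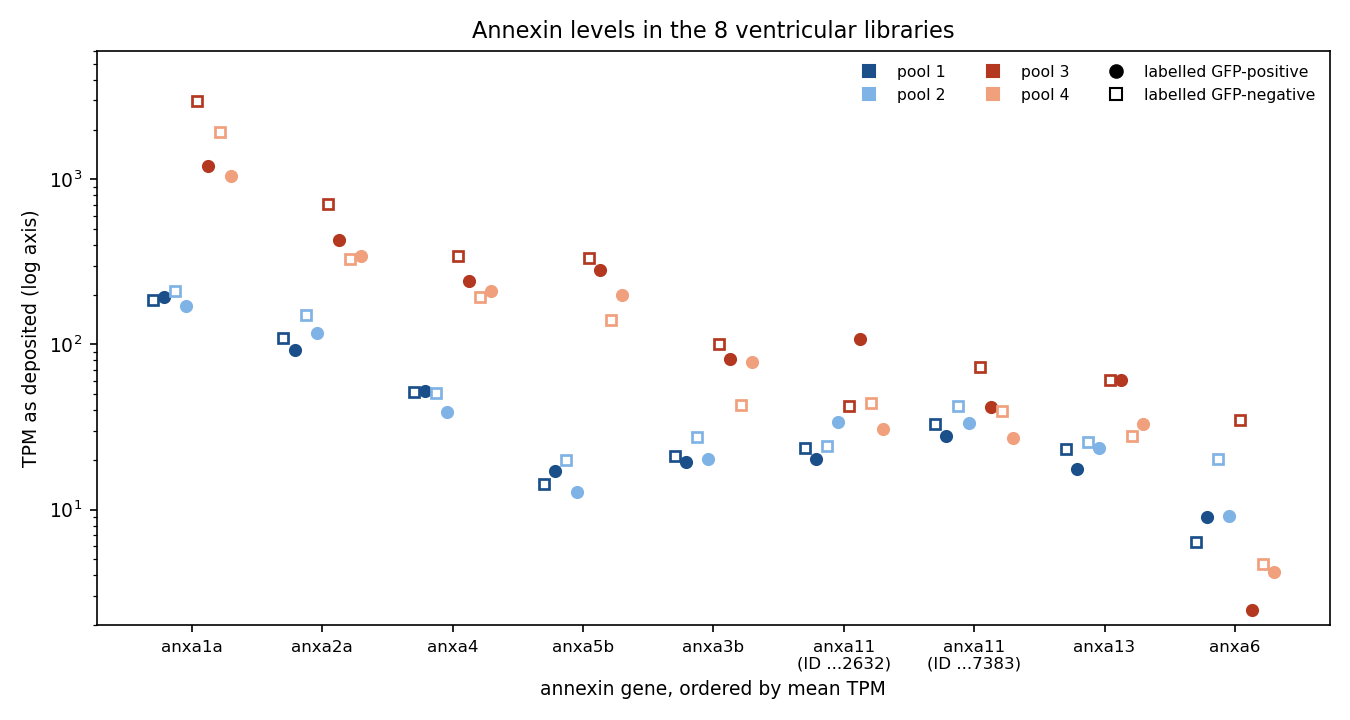
TPM as deposited (log axis) of the 9 annexins that passed the filter on low values, one point per library, coloured by pool and filled where the label is GFP-positive. The points of anxa1a, anxa2a, anxa4, anxa5b, anxa3b and anxa13 do not overlap between pools 1 and 2 and pools 3 and 4, while those of both anxa11 identifiers and anxa6 do. Of all genes tested, 33.4% had every library of pools 3 and 4 above those of pools 1 and 2 as deposited. After scaling between libraries anxa13 overlapped.

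The remaining members were lower and less separated. anxa3b, whose mammalian counterpart is abundant in neutrophils, had 19.3 to 27.6 TPM across pools 1 and 2 against 43.2 to 101 across pools 3 and 4. anxa13, best known from the intestinal epithelium, had 17.6 to 25.7 and 28.0 to 61.0 TPM. The 2 anxa11 identifiers, of a protein that in mammals binds the calcium sensor ALG-2, overlapped between the pools. ENSDARG00000002632 had 20.3 to 33.7 TPM across pools 1 and 2 against 30.6 to 107 across pools 3 and 4, where the library of pool 3 labelled GFP-positive held the highest value. ENSDARG00000077383 had 27.7 to 42.6 and 26.95 to 73.0 TPM.

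anxa6 was the lowest of the expressed members. Annexin A6 has a longer core of repeats than the other members and is known from mammalian heart muscle. Its TPM in pools 1 to 4 was 6.38, 20.2, 35.1 and 4.70 under the GFP-negative label and 9.06, 9.12, 2.47 and 4.18 under the GFP-positive label. The library of pool 3 labelled GFP-negative was thus far above its partner of the same pool, and the pools overlapped. In that library 8 of the 9 tested members had their highest TPM as deposited. The factor used to scale that library was the largest of all, at 1.89 against 0.603 to 1.62. TPM as deposited thus ran high there for genes in general, and the share of all genes highest there was not counted.

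anxa2b was listed at 0 in all 8 libraries. An exact 0 in TPM can be a failed estimate as well as a missing transcript, so it is given as listed. Of the 7 other annexin identifiers in the table, anxa1b, anxa5a and ANXA3 (ENSDARG00000009196, the synonym of anxa3a in RefSeq) were also listed at 0 throughout. anxa1c reached at most 3.82 TPM, anxa1d 0.86, anxa14 4.46 and anxa13l 10.6. Of these 7, anxa13l and anxa14 passed the filter on low values, and neither passed the test among the pools (limma adjusted p = 0.888 and 0.866) or between the labelled sorts (0.946 and 0.995).

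Ordered by mean TPM over the 8 libraries, anxa1a (991) was followed by anxa2a (284), anxa4 (148), anxa5b (128), anxa3b (49.0), anxa11 ENSDARG00000002632 (40.8), anxa11 ENSDARG00000077383 (39.8), anxa13 (34.1) and anxa6 (11.4). The first 2 steps of this order held in 8 of 8 libraries each, and anxa4 was above anxa5b in 7 of 8. anxa5b was above anxa3b in 4 of 8 libraries, those of pools 3 and 4. The next neighbours, anxa3b with ENSDARG00000002632 and the latter with ENSDARG00000077383, kept their order in 3 and 4 of 8 libraries, so their levels did not differ beyond the spread.

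The make-up of the family also differed between the pools. The members had a summed level of 451 to 570 TPM per library across pools 1 and 2 and 1973 to 4677 across pools 3 and 4. Within that sum, anxa1a held 36.8% to 43.1% across pools 1 and 2 against 49.1% to 70.1% across pools 3 and 4. The share of anxa5b was 2.78% to 3.77% and 5.09% to 11.5%, and that of anxa2a 20.6% to 26.2% and 11.998% to 17.5%. The identifier ENSDARG00000077383 of anxa11 held 6.15% to 7.47% across pools 1 and 2 against 1.37% to 1.71% across pools 3 and 4, and anxa6 held 1.37% to 3.54% and 0.101% to 0.7497%. Of these genes, anxa1a and anxa5b thus took a larger share in pools 3 and 4 and the other 3 a smaller share, without overlap. The shares of anxa3b (4.28% to 4.84% and 1.57% to 3.95%) and anxa13 (3.91% to 5.12% and 1.02% to 2.48%) were smaller there too. How many of all genes would separate the pools by their ratio to this sum was not counted. After scaling between libraries, 12.1% of all genes tested lay wholly higher in pools 3 and 4 and 14.5% wholly lower. Shares of a sum depend on each other, so a larger share of anxa1a leaves less for the others together. The TPM of anxa2a was higher in pools 3 and 4 although its share was smaller. These shares are ratios within a library and do not depend on scaling between libraries. The share of anxa4 overlapped, at 8.50% to 11.6% and 7.02% to 10.7%, as did that of anxa11 ENSDARG00000002632, at 4.26% to 7.34% and 0.900% to 4.37%.

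**Figure D2:**
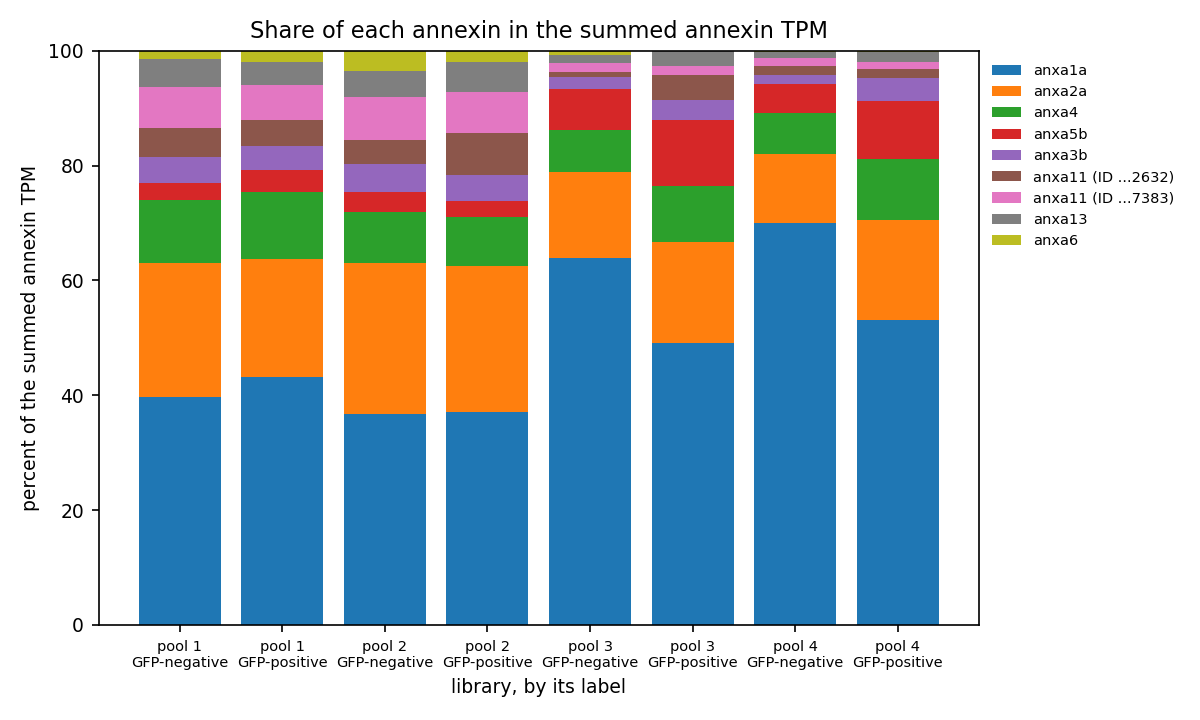
Percent of the summed TPM of the members held by each annexin, one bar per library, named by pool and label. anxa1a takes 49.1% to 70.1% of the sum across pools 3 and 4 against 36.8% to 43.1% across pools 1 and 2. The band of anxa5b is wider in pools 3 and 4, at 5.09% to 11.5%.

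For tests, TPM were scaled between libraries, because the median gene stood 0.51 to 1.13 higher on the log2 scale in pools 3 and 4 than in pools 1 and 2 before scaling. A gene was tested if it had at least 1 TPM in at least 4 libraries, and 9 of the 10 members and 13877 genes in all met this. Differences below are on the scale of log2(scaled TPM + 1), which understates changes of low genes, and a gene was called at a Benjamini-Hochberg adjusted p under 0.05 over all genes tested. As deposited, 6 of the 9 members had all 4 libraries of pools 3 and 4 above all 4 of pools 1 and 2, against 33.4% of all genes tested, and 0 of 9 had all of them below, against 6.26%. After scaling 5 of 9 had all of them above, anxa1a, anxa2a, anxa3b, anxa4 and anxa5b, against 12.1% of all genes.

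Scaling changed the order of the pools for other members. anxa11 ENSDARG00000077383 had 46.0 to 52.1 scaled TPM across pools 1 and 2 against 22.3 to 38.7 across pools 3 and 4, without overlap. Of all genes, 14.5% had every scaled value of pools 3 and 4 below those of pools 1 and 2. anxa13 had 29.2 to 35.4 and 23.2 to 37.5 scaled TPM, so that its separation in the deposited TPM was no longer seen.

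Among the 4 pools, limma's F test called anxa5b (adjusted p = 0.00143), anxa1a (0.00774) and anxa4 (0.0115), which is 3 of 9 tested members against a background of 12.9% of all genes. anxa2a missed the threshold (adjusted p = 0.0665), and passed it with the TPM as deposited (0.00248) or with a filter of at least 5 TPM (0.0408). With the TPM as deposited anxa3b (0.0126) and anxa13 (0.0252) passed as well. Without a filter on low values anxa1a missed it (0.0528), and with a prior variance that did not follow the mean level anxa4 did (0.0915). For the remaining members the adjusted p after scaling was 0.330 for anxa3b, 0.303 for anxa6, 0.644 for anxa13, 0.936 for ENSDARG00000002632 and 0.156 for ENSDARG00000077383. The spread behind this test comes from the 2 libraries of a pool, which the series' design text calls paired. These p-values therefore say nothing of how sets of hearts vary. In bulk samples such as these, more cells of a type and more RNA per cell cannot be told apart.

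Markers of several cell types moved with the pools. The same F test called 12.9% of all genes. Of 9 tested fibroblast identifiers 8 were called, 7 of them higher in pools 3 and 4. The list summed to 153 to 273 TPM across pools 1 and 2 against 3098 to 6635 across pools 3 and 4. This and the following sums are TPM as deposited, which ran higher in pools 3 and 4 for the median gene. The calls were made after scaling. All 6 epicardium genes were called, 4 higher and 2 lower, with sums of 150 to 311 and 238 to 487 TPM. Of 7 smooth muscle and pericyte identifiers 3 were called higher and 1 lower, with sums of 67.4 to 94.4 and 450 to 758 TPM. Without the pool 2 library labelled GFP-negative, 2 of the smooth muscle and pericyte identifiers were called, beside 1110 of all genes. All 10 tested cardiomyocyte identifiers were lower in pools 3 and 4, with sums of 21343 to 29592 and 1735 to 4104 TPM, as were all 7 endothelium genes, with 191 to 360 and 21.3 to 44.8 TPM, and 4 of 5 erythrocyte genes, with 691 to 1763 and 12.4 to 36.3 TPM. Of 4 tested epithelial genes 0 were called by limma, and 1 had an unadjusted p under 0.05. The epithelial sums were 60.1 to 91.5 and 148 to 485 TPM. With the TPM as deposited (4007 of all genes called) or without the pool 3 library labelled GFP-negative (1367), 1 epithelial gene was called. Macrophage and leukocyte identifiers were called lower in 3 of 11 cases, with sums of 148 to 253 and 71.95 to 213 TPM. Without the pool 2 library labelled GFP-positive 1 of these identifiers was called, beside 1000 of all genes. Apart from 1 Schwann cell gene, no marker identifier was listed at 0 in all 8 libraries. By label the fibroblast sums overlapped, at 153 to 6635 TPM under GFP-negative and 237 to 5114 under GFP-positive. The part of these cell types in the annexin differences was not tested.

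anxa5b rose in each of the 4 contrasts of pool 3 or 4 with pool 1 or 2, which share libraries with each other. The log2 difference was 2.78 (SE 0.30, limma adjusted p = 0.00184) for pool 3 minus pool 1 and 2.44 (SE 0.30, adjusted p = 0.00336) for pool 4 minus pool 1. Against pool 2 it was 2.99 (adjusted p = 0.00126) for pool 3 and 2.65 (adjusted p = 0.00237) for pool 4. Each contrast stayed past the threshold whichever of the 8 libraries was left out, with differences from 2.22 to 3.31.

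anxa1a rose by 1.84 (SE 0.35, limma adjusted p = 0.0146) in pool 3 and by 1.96 (adjusted p = 0.0132) in pool 4 against pool 1, and by 2.10 (adjusted p = 0.00771) and 2.22 (adjusted p = 0.00735) against pool 2. Single libraries mattered here. Without the pool 1 library labelled GFP-negative the adjusted p against pool 1 was 0.156 for pool 3 and 0.144 for pool 4, and without that of pool 2 it was 0.0684 and 0.0630 against pool 2. Leaving out the pool 3 library labelled GFP-negative gave 0.0739 for pool 3 minus pool 1. Leaving out that of pool 4 gave 0.0968 for pool 4 minus pool 1 and 0.0607 for pool 4 minus pool 2. Over the 8 fits without a library the differences stayed positive, at 1.40 to 2.30 (pool 3) and 1.52 to 2.39 (pool 4) against pool 1, and at 1.71 to 2.56 and 1.94 to 2.54 against pool 2. The F test on anxa1a passed in all 8 such fits. Without a filter on low values the contrasts of anxa1a with pool 1 missed the threshold (0.0631 and 0.0604), as they did with a prior variance without trend (0.0561 and 0.0516).

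anxa4 rose by 0.99 (SE 0.24, limma adjusted p = 0.0363) and 1.01 (adjusted p = 0.0369) in pools 3 and 4 against pool 1, and by 1.46 (adjusted p = 0.00726) and 1.48 (adjusted p = 0.00802) against pool 2. The contrast of pool 3 with pool 1 was lost without any library of pools 1, 2 or 3, at adjusted p from 0.0600 to 0.279. That of pool 4 with pool 1 was lost without any library of pools 1, 2 or 4, from 0.0644 to 0.277. The contrasts with pool 2 were lost without its library labelled GFP-positive (0.0673 for pool 3 and 0.0752 for pool 4), and pool 4 minus pool 2 also without the pool 2 library labelled GFP-negative (0.0510) or the pool 4 library labelled GFP-positive (0.0561). Without the pool 2 library labelled GFP-positive the F test missed the threshold as well (0.0597). The differences over the 8 fits stayed positive, at 0.84 to 1.19 (pool 3) and 0.88 to 1.14 (pool 4) against pool 1, and at 1.33 to 1.66 and 1.41 to 1.62 against pool 2. With a prior variance without trend the 4 contrasts of anxa4 had adjusted p from 0.0528 to 0.160, and without a filter those with pool 1 had 0.0604 and 0.0645.

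anxa2a rose by 0.97 (SE 0.24, limma adjusted p = 0.0377) in pool 3 against pool 1, and the other 3 contrasts, of 0.66 to 0.83, had adjusted p of 0.0600 to 0.129. This call was lost without either library of pool 1 (0.254 and 0.180), without either of pool 2 (0.0661 and 0.0652) and without the pool 3 library labelled GFP-negative (0.168). Without the pool 3 library labelled GFP-positive, pool 3 minus pool 1 stayed called at 1.23 (adjusted p = 0.0425), and pool 4 minus pool 1 was called as well at 0.84 (adjusted p = 0.0495). Over the 8 fits without a library, anxa2a in pool 3 minus pool 1 ranged from 0.77 to 1.23. Members called higher numbered 4, 3, 3 and 3 of 9 for pools 3 and 4 against pool 1 and pools 3 and 4 against pool 2, beside 4.64%, 4.16%, 5.18% and 4.84% of all genes. The 3 members called higher in all 4 contrasts, anxa1a, anxa4 and anxa5b, stand beside 2.73% of all genes.

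The members that were not called ran in both directions. anxa3b differed by 0.58 to 0.70 over the 4 contrasts, with 95% confidence intervals from -0.19 to 1.46. anxa6 differed by -2.03 to -0.90, with intervals from -3.83 to 0.90. The anxa6 interval for pool 4 minus pool 2, -3.83 to -0.24, was negative throughout. ENSDARG00000077383 of anxa11 differed by -0.87 to -0.59 and ENSDARG00000002632 by -0.31 to 0.15. For ENSDARG00000077383 the interval was -1.23 to 0.065 for pool 3 minus pool 1. Its other intervals, from -1.52 to -0.001, were negative throughout. anxa13 lay between -0.37 and 0.11. Over the 9 tested members the median difference was 0.58 to 0.70 in the 4 contrasts, where the median over all genes was -0.04 to -0.02.

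**Figure D3:**
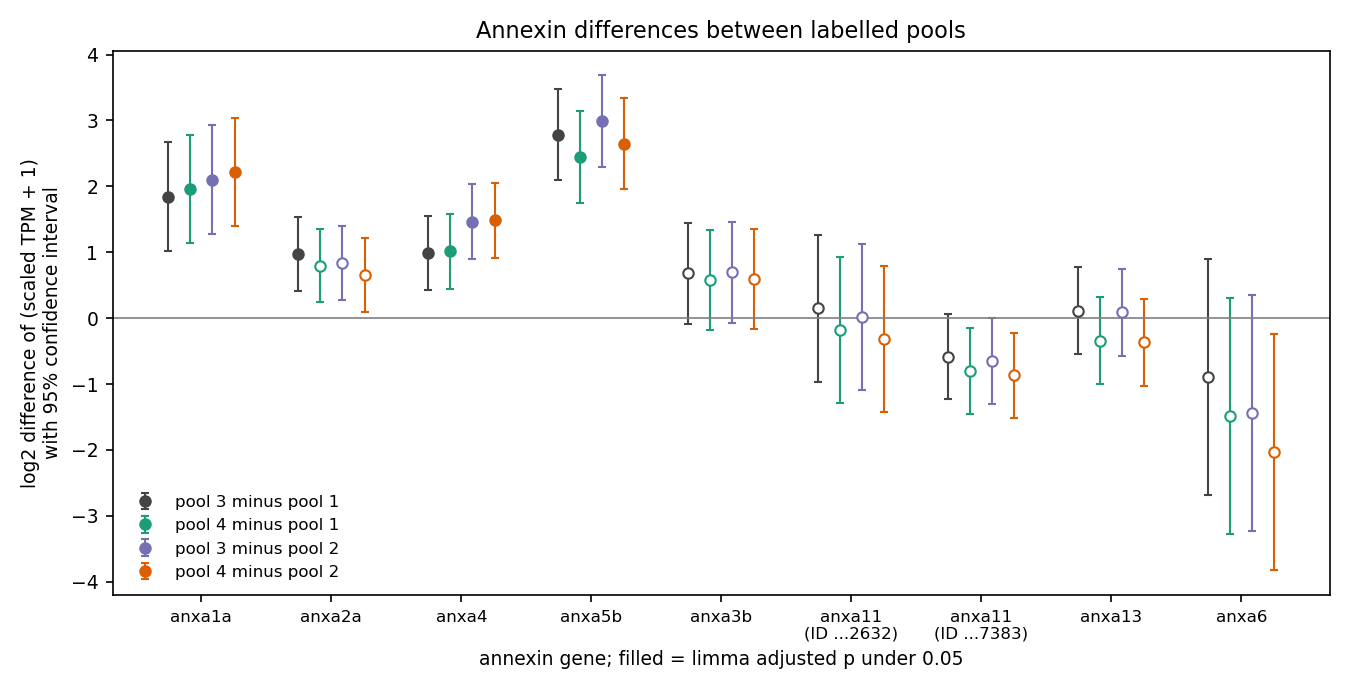
Differences of log2(scaled TPM + 1) between a pool of 3 or 4 and a pool of 1 or 2 for each tested annexin, with 95% confidence intervals. Points are filled where the limma adjusted p is under 0.05, which is all 4 contrasts for anxa1a, anxa4 and anxa5b and 1 contrast for anxa2a.

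Between pools 1 and 2 and between pools 3 and 4, limma called 0 of 9 members and 0% of 13877 genes. No member had an unadjusted p under 0.05 in either contrast, where 375 and 1186 genes did. For pool 4 minus pool 3 the anxa1a difference was 0.12 (95% confidence interval -0.70 to 0.94) and that of anxa5b -0.34 (-1.03 to 0.35).

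No annexin passed the test between the labelled sorts, compared within pools. limma called 0 of 9 members and 0% of 13877 genes, and at an unadjusted p under 0.05 there were 0 members and 5.55% of all genes. 4 members had a positive and 5 a negative difference. Under the GFP-positive label anxa1a had 655 ± 550 TPM (SD, n = 4), and under the GFP-negative label 1327 ± 1374 (SD, n = 4). The log2 difference of anxa1a (GFP-positive minus GFP-negative label) was -0.46 with a 95% confidence interval of -1.04 to 0.13 (SE 0.25, limma adjusted p = 0.853). By pool the anxa1a difference was 0.20, -0.05, -1.09 and -0.88, so the lower values under the GFP-positive label lay mainly in pools 3 and 4.

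anxa5b had 128 ± 135 TPM (SD, n = 4) under the GFP-positive label and 127 ± 150 (SD, n = 4) under the GFP-negative label, a log2 difference of 0.12 (SE 0.21, limma adjusted p = 0.946). Its sign changed from pool to pool, at 0.37, -0.38, -0.02 and 0.51. anxa4 differed by -0.03 (SE 0.17, adjusted p = 0.990) and anxa2a by -0.16 (SE 0.17, adjusted p = 0.903). Both had 95% confidence intervals within -0.56 and 0.37, on both sides of 0.

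anxa11 ENSDARG00000077383 was the member with the same sign in all 4 pools, lower under the GFP-positive label, with log2 differences of -0.12, -0.10, -0.56 and -0.54 (limma estimate -0.33, SE 0.20, adjusted p = 0.853). Of all genes, 6.51% were lower in all 4 pools. The other identifier, ENSDARG00000002632, differed by -0.09, 0.70, 1.53 and -0.52 by pool (estimate 0.40, SE 0.34, adjusted p = 0.886). anxa6 had the widest interval, -0.84 (SE 0.55, 95% confidence interval -2.11 to 0.43, adjusted p = 0.865), and its difference was -2.96 in pool 3. anxa3b (0.14, SE 0.23) and anxa13 (0.07, SE 0.20) did not pass either.

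**Figure D4:**
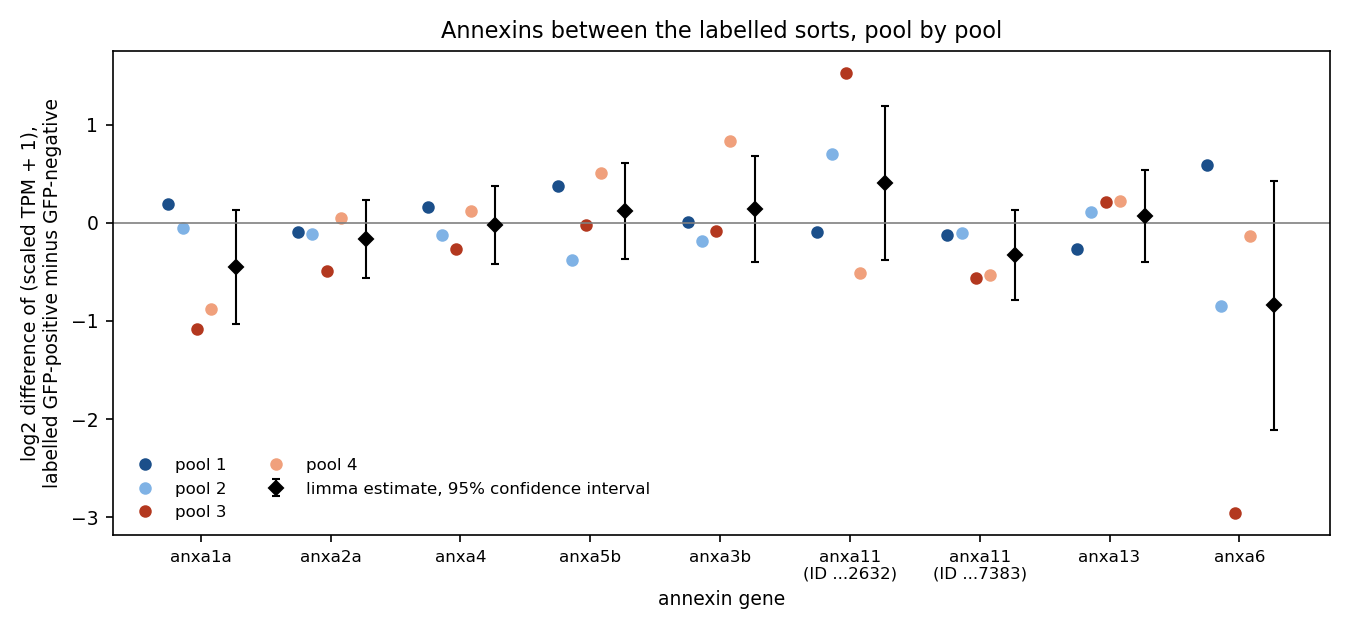
Difference of log2(scaled TPM + 1) between the libraries labelled GFP-positive and GFP-negative of each pool (coloured points), with limma's estimate and its 95% confidence interval (black diamonds), for the 9 tested annexins. All intervals include 0, and anxa6 in pool 3 lies lowest, at -2.96.

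For the 3 most abundant members, the genes with the most similar pattern were sought among those with a symbol and a mean of at least 10 TPM, by the root mean square difference of log2(scaled TPM + 1) over the 8 libraries, each gene centred on its own mean. The members of such a group share libraries and scaling, and no test was made. The genes nearest to anxa1a were GSTM3 (0.21), a glutathione transferase, VSTM4 (0.27) and zgc:103438 (0.29). The nearest to anxa2a were fam20ca (0.09), a secretory pathway kinase gene, si:dkey-154b15.1 (0.10) and pleca (0.12), which encodes the cytoskeletal linker plectin. For anxa4 they were sh2b1 (0.12), an adaptor gene, si:cabz01069012.2 (0.16) and selenop (0.16), encoding a selenium carrier. Within the family, anxa2a was nearest to anxa3b (0.25) and anxa4 (0.32), and anxa5b and anxa6 were farthest apart (2.24).

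Among S100 proteins, small calcium-binding proteins some of which bind annexin tails, 3 of 9 tested genes were called among the pools, all 3 higher in pools 3 and 4 (12.9% of all genes were called). The median log2 difference of the 9 was 1.03 to 1.73 over the 4 contrasts, beside -0.04 to -0.02 for all genes. s100w had 1.35 to 5.11 TPM across pools 1 and 2 against 49.0 to 162 across pools 3 and 4 (limma adjusted p = 0.00254), and s100v2 had 41.2 to 50.6 and 168 to 420 (adjusted p = 0.0118). icn, an ictacalcin gene, had 395 to 454 and 1439 to 3410 TPM (adjusted p = 0.0492). The icn call was lost in 6 of the 8 fits without a library, all but those without a library of pool 4, and the adjusted p over the 8 fits ran from 0.0171 to 0.136. With the TPM as deposited 8 of the 9 genes were called (4007 of all 13877 genes). Without the library labelled GFP-negative or GFP-positive of pool 4 there were 6 and 5 (1291 of all genes in each fit). With a prior variance without trend 1 was called (1500 of all genes).

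Known partners, s100a10b and s100a11, and the paralog s100a10a were added after their values were seen. s100a10b, of the S100A10 family that pairs with annexin A2, had 166, 126, 662 and 654 TPM under the GFP-negative label and 119, 153, 415 and 459 under the GFP-positive label, and was not called among the pools (limma adjusted p = 0.0896). Its ratio to anxa2a within a library was 0.842 to 1.53 across pools 1 and 2 against 0.940 to 1.98 across pools 3 and 4, with overlap. s100a11, whose mammalian counterpart binds annexin A1, had 3.29 to 3.94 TPM across pools 1 and 2 against 12.8 to 94.0 across pools 3 and 4 (adjusted p = 0.0506). The paralog s100a10a reached at most 9.17 TPM.

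Of 5 tested genes of the plasminogen system, in which annexin A2 acts as a cell-surface receptor in mammals, 3 differed among the pools, 2 higher in pools 3 and 4, beside 12.9% of all genes called. The median log2 difference of the 5 was -0.13 to 0.54, beside -0.04 to -0.02 for all genes. PLAT, the tissue plasminogen activator, had 0.71 to 3.04 TPM across pools 1 and 2 against 26.7 to 73.2 across pools 3 and 4 (limma adjusted p = 0.00256). SERPINE2, an inhibitor of plasminogen activators and thrombin, had 1.67 to 6.80 and 37.0 to 76.8 TPM (adjusted p = 0.0165), and was not called without the pool 3 library labelled GFP-positive (0.0522) or that of pool 4 (0.0518). plgrkt, a plasminogen receptor gene, went the other way, with 11.5 to 28.5 and 1.28 to 7.51 TPM (adjusted p = 0.00591).

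Membrane repair and caveolar genes were divided, with 6 of 27 called, 2 higher and 4 lower in pools 3 and 4, beside 12.9% of all genes called. Their median log2 difference was -0.53 to 0.01, beside -0.04 to -0.02 for all genes. ahnak, a very large protein that binds the annexin A2 complex in mammals, had 102 to 154 TPM across pools 1 and 2 against 417 to 744 across pools 3 and 4 (limma adjusted p = 0.0176). capn2a, a calcium-dependent protease, had 11.6 to 18.9 and 63.2 to 170 TPM (adjusted p = 0.0201). The caveolar coat gene CAVIN1 (ENSDARG00000076411) had 17.0 to 33.7 and 4.14 to 8.16 TPM (adjusted p = 0.00254), and ehd4, a membrane-shaping ATPase, 14.6 to 22.7 and 3.31 to 7.83 TPM (adjusted p = 0.00331). ahnak was not called without either library of pool 1 (0.0806 and 0.0715) or the pool 2 library labelled GFP-positive (0.0585), nor capn2a without the pool 1 library labelled GFP-positive (0.0574), or that of pool 2 (0.0550) or pool 3 (0.0503). The count was 13 with the TPM as deposited, 10 with a filter of at least 5 TPM, and 2 without a filter or without trend in the prior variance. All genes called in those fits numbered 4007, 1687, 884 and 1500, against 1787. The count was 3, 2 and 2 without the pool 1 library labelled GFP-negative, the pool 1 library labelled GFP-positive and the pool 2 library labelled GFP-positive, where 948, 981 and 1000 of all genes were called.

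Genes that move or bind phosphatidylserine, the lipid that annexin A5 recognises, were called by limma in 0 of 12 tested cases, beside 12.9% of all genes. At an unadjusted p under 0.05 there were 3, and the list had a median log2 difference of -0.07 to 0.59. The scramblase gene plscr3b had an adjusted p of 0.260 (limma), or 0.0165 with the TPM as deposited, and 4.99 to 11.3 TPM across pools 1 and 2 against 24.9 to 40.2 across pools 3 and 4. With the TPM as deposited 5 of the 12 were called, and without the pool 3 library labelled GFP-negative or the pool 4 library labelled GFP-positive there was 1. All genes called in those fits numbered 4007, 1367 and 1291, against 1787. In a list of phospholipase A2 and eicosanoid enzymes with receptors, limma called 4 of 13 tested identifiers, beside 12.9% of all genes. Of these, 1 was higher and 3 were lower in pools 3 and 4, and the list had a median log2 difference of -0.34 to -0.06. The higher gene was fpr1, listed under the name of a formyl peptide receptor through which annexin A1 acts in mammals. It had 0.53 to 2.29 TPM across pools 1 and 2 against 30.5 to 54.7 across pools 3 and 4 (limma adjusted p = 0.00232).

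**Figure D5:**
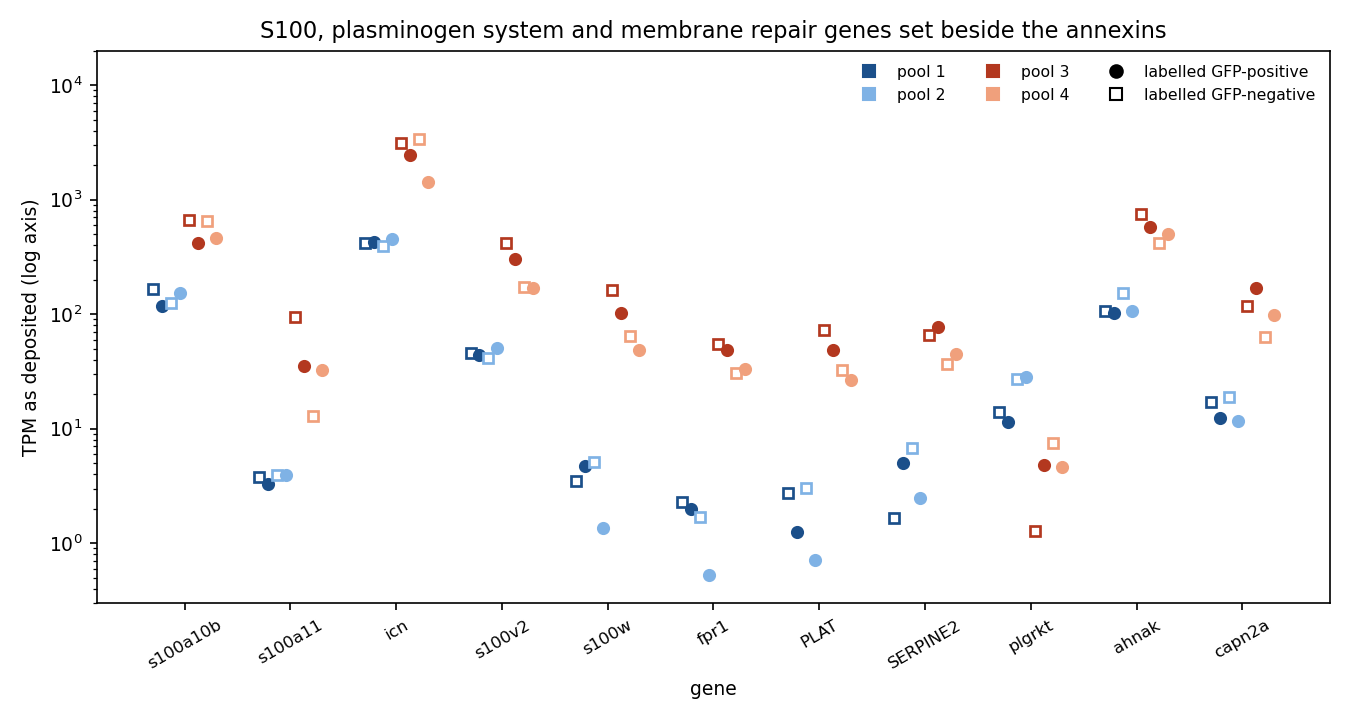
TPM as deposited (log axis) of S100, plasminogen system, receptor and membrane repair genes, one point per library, coloured by pool and filled where the label is GFP-positive. plgrkt lies lower in pools 3 and 4 (1.28 to 7.51 TPM) than in pools 1 and 2, and the other genes shown lie higher there. As deposited, 33.4% of all genes tested had every library of pools 3 and 4 above those of pools 1 and 2. Of the genes shown, s100a10b and s100a11 were not called among the pools (limma adjusted p = 0.0896 and 0.0506). The genes shown were picked and do not stand for their lists. Of the membrane repair and caveolar list, 2 genes were called higher, both shown, and 4 lower, which are not shown. The receptor gene is fpr1, and both PTGS2 identifiers of its list, called lower, are not shown either.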

How the data were processed

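RNA sequencing was deposited for 8 libraries as TPM per gene. Libraries were made from 0.2 to 0.6 ng of RNA with 2 rounds of amplification and read as single reads of 60 bases, per the labels' protocols. The tools were CASAVA 1.8.2, cutadapt and RSEM 1.2.25 with genome build Zv9, per the submitters' processing notes. An aligner was not given in the sources used here. Columns of deposited TPM sum to a constant, so depth is unknown and no counting interval was computed. RefSeq synonyms were used for names alone.

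Between libraries, scaling factors came from the trimmed mean of log ratios without weights, with 30% cut from the ratios and 5% from the abundances at each end, over genes that reached 1 TPM in 4 or more libraries. limma 3.58.1 in R 4.3.3, its prior variance following mean level, was fitted to log2(scaled TPM + 1) of 13877 genes with labelled sort and pool as terms. The series' design text calls the replicates paired. Deviations of the libraries of a pool from the sort means correlated across genes at 0.492, 0.537, 0.446 and 0.403 for pools 1 to 4. No such value was computed for libraries of different pools, so these correlations do not test the pairing.

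The members and lists were chosen with earlier results of these data known. All annexins were named, with up to 4 called genes of smallest p per list, the uncalled gene of highest mean TPM where fewer than 2 were called, and the 3 nearest genes of the 3 most abundant members. s100a10a, s100a10b, s100a11 and wt1a were named outside this rule. Of 194 list entries 169 were matched. The scripts were tested on simulated data. Alternatives covered scaling, filters, pseudocounts of 0.1 and 5, prior variance, model terms, and leaving out libraries or pools. Tables and figures were made with Python 3.11.15, pandas 2.3.3 and matplotlib 3.10.9.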

Additional observations from a re-analysis of the deposited data

Results flagged for a closer look

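In 28 groups of 4 libraries (the TPM as deposited of each annexin tested and the ratios s100a10b to anxa2a, anxa1a to anxa2a and s100a11 to anxa1a, by labelled sort), the gap of the highest or lowest library to its neighbour was set against the range of the group. Chance flags about 1 group in 20 if all values come from a single normal spread. Each group here joined pools 1 and 2 with pools 3 and 4, so that rate may not hold and no conclusion is drawn from the number of flags. In 4 cases the gap was above Dixon's critical value. anxa11 ENSDARG00000002632 had 107 TPM in the pool 3 library labelled GFP-positive, far above the other libraries of that label. anxa13 had 61.0 TPM in the pool 3 library labelled GFP-negative. The libraries of pool 3 had the largest scaling factors, 1.89 and 1.62. After scaling, ENSDARG00000002632 had 29.7 to 48.9 TPM across pools 1 and 2 against 22.3 to 66.2 across pools 3 and 4. anxa13 had 29.2 to 35.4 and 23.2 to 37.5 scaled TPM. The gaps were not computed on scaled values, so these flags hold for the TPM as deposited alone. anxa13l, a low gene, had 10.6 TPM in the pool 3 library labelled GFP-positive and 7.72 in the pool 1 library labelled GFP-negative. The other 3 libraries labelled GFP-negative were listed at 0, so there the gap equalled the range whatever the value.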

How the results depend on the processing

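Scaling had the most effect. With the TPM as deposited, limma's F test among pools called 4007 genes and 6 annexins, against 1787 and 3 after scaling, and without a filter on low values it called 884 genes. Leaving out a library gave 948 to 1408 genes and 2 to 3 annexins. Between the labelled sorts, the pairing of libraries by pool changed no annexin call, and without the replicate block 0 genes and 0 annexins were called. Leaving out a pool with the block gave 0 to 3 genes, and leaving out a library without it gave 0 genes, or 1 gene without the pool 2 library labelled GFP-negative.

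The small sort differences, none of them called, changed sign. With the TPM as deposited the log2 difference was -0.023 for anxa5b and -0.072 for anxa13. Leaving out a pool gave -0.1035 to 0.0466 for anxa4, -0.113 to 0.2554 for anxa3b, -0.0363 to 0.288 for anxa5b and -0.0078 to 0.180 for anxa13. Leaving out a library without the block, the sign changed for anxa5b without the GFP-negative library of pool 1 (-0.342) or 2 (-0.286) and the GFP-positive library of pool 3 (-0.370) or 4 (-0.344). It changed for anxa4 without the GFP-positive library of pool 1 (0.0676) or 2 (0.272) and the GFP-negative library of pool 3 (0.212) or 4 (0.166). It also changed for anxa13 without the GFP-positive library of pool 3 (-0.013) or the GFP-negative library of pool 4 (-0.0451), for anxa3b without the GFP-positive library of pool 4 (-0.0631) and for anxa2a without the GFP-negative library of pool 3 (0.0522). The cause was not tested. Depth is unknown, and 4 libraries per sort limit the precision.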

Other observations

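A list of enzymes that release and convert arachidonic acid, a pathway that annexin A1 is known to restrain in mammals, and of 2 receptors had 4 of 13 tested identifiers called among the pools (limma, 12.9% of all genes called), 1 higher and 3 lower in pools 3 and 4. The higher gene was the receptor gene fpr1, and the 3 lower were enzymes. Both identifiers listed as PTGS2, the inducible cyclooxygenase, were lower in pools 3 and 4. A link between anxa1a and any gene of this list was not tested. ENSDARG00000004539 had 52.7 to 131 TPM across pools 1 and 2 against 6.93 to 17.1 across pools 3 and 4 (limma adjusted p = 0.00164), and ENSDARG00000010276 had 25.9 to 59.2 and 3.99 to 8.87 (adjusted p = 0.00311). Reads can be divided between these paralogs. PLA2G4A (ENSDARG00000017141), a cytosolic phospholipase A2, had 1.73 to 4.46 and 0 to 2.54 TPM (adjusted p = 0.0485) and missed the threshold in all 8 fits without a library, at 0.0504 to 0.186.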
